A study of Rattus norvegicus with 6 samples.

Results

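The genes described here make the polyamines or control their synthesis: Odc1, Amd1, Oaz1, Oaz2, Azin1, Srm and Sat1. Every probe set that the platform annotation gives to 1 of these 7 genes was taken, which found 7 probe sets of 5 genes among the 8799 probe sets of the array. Odc1 and Azin1 had 2 probe sets each, Amd1, Oaz1 and Oaz2 had 1 each, and none named here stood for the spermidine synthase gene Srm or the spermidine/spermine acetyltransferase gene Sat1. All 7 probe sets passed the filter on dim signal.

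Polyamines are small positively charged molecules that bind nucleic acids and that growing cells need. The enzyme ornithine decarboxylase, encoded by Odc1, makes putrescine from ornithine, and S-adenosylmethionine decarboxylase, encoded by Amd1, supplies the aminopropyl groups that turn putrescine into spermidine and then spermine. Antizymes, encoded by Oaz1 and Oaz2, bind ornithine decarboxylase, send it to the proteasome and reduce polyamine uptake. The antizyme inhibitor encoded by Azin1 resembles ornithine decarboxylase but has no activity of its own and takes antizyme away from the enzyme. Prostate secretes polyamines into seminal fluid and is known for high ornithine decarboxylase activity.

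Total RNA of the dorsolateral prostate, the rat lobes often compared with the peripheral zone of the human gland, was measured in male rats of the inbred strain ACI, 3 fed a diet high in corn oil and 3 a diet low in it. This plant oil is rich in linoleic acid. Feeding lasted 18 months, the labels also give the age as 18 months, and each rat had its own array. For high corn oil replicate 3 the title and source name give the high diet but the free-text description gives the low one, so the diet differences of the 7 probe sets are also given with that rat in the low group.

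Among high arrays, that of replicate 1 was unlike the other 2. Its Spearman correlation over tested probe sets was 0.869 and 0.882 with high corn oil replicates 2 and 3, and 0.927 to 0.950 with the low arrays. Signal of the bacterial spike-ins BioB, BioC and BioDn (7 probe sets) was higher in 1 array of the high diet (replicate 1) and 2 of the low diet (replicates 1 and 2) than in the other 3. The summed level of 12 prostate secretory markers was 256957 in high corn oil replicate 1 and 167055 and 172000 in high corn oil replicates 2 and 3, against 227630 to 268764 in low arrays. The members of the list did not move together: on high corn oil replicates 2 and 3, against low arrays, probasin (Pbsn) had 19851 and 21926 against 78113 to 82039 and Msmb 33652 and 39953 against 66835 to 80234, while spermine-binding protein (Sbp) had 45313 and 53056 against 6801 to 39729 and the kallikrein gene Klk1 3981 and 4849 against 5.7 to 778. In this list none of the 12 separated the diets, and the acid phosphatase gene Acp3 was at or below 0 on every array while Pbsn was bright. Of the seminal vesicle markers, Semg1 had 30689 and 36240 on high corn oil replicates 2 and 3 against 58912 to 75216 in low arrays. Svs4 had 32772 and 39172 against 26256 to 42692, Svs3a 1109 and 3322 against 684 to 1231, and Svs5 was near 0. Whether the lobes or neighbouring tissue taken differed between rats was not tested. In whole tissue, fewer cells of a type and less RNA per cell cannot be told apart.

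Sequence just before and after the transcription start is shown for Odc1, Amd1 and Oaz1, because signal of Amd1 and of Odc1 probe set J04791_s_at, but not of the other Odc1 probe set, was highest on the same 2 arrays and Oaz1 encodes the regulator that acts on the Odc1 protein. The windows run from 250 bases before to 50 bases after the start in RefSeq on build GRCr8, 5′ to 3′ on the gene's strand. Of the 7 genes 6 had such an entry. Capitals mark matches on either strand to the cyclic AMP response core TGACG, the TATA motif TATAA and the E-box CACGTG.
Odc1 (chr6:46058415-46058714, plus strand): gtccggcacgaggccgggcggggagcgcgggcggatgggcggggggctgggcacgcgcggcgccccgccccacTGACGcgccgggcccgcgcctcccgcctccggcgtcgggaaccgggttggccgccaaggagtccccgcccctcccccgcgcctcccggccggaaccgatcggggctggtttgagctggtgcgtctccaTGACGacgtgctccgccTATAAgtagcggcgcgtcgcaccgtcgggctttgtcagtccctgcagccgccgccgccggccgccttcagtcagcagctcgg
Amd1 (chr20:45265933-45266232, minus strand): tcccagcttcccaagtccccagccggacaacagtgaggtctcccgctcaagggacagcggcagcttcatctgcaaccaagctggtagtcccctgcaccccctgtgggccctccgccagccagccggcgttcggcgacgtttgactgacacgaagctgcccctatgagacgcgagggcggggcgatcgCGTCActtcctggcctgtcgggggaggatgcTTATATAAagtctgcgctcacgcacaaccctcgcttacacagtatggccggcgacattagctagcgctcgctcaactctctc
Oaz1 (chr7:9536941-9537240, minus strand): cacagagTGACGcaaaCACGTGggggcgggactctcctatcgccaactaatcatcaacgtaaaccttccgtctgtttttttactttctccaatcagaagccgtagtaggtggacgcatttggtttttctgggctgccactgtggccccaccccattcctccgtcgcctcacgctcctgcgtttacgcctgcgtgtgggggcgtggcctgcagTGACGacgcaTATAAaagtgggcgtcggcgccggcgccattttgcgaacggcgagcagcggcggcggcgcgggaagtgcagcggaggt
All 3 windows hold TATAA or its complement, with first bases at -32 in Odc1, at -32 and -29 in Amd1 (overlapping, on opposite strands) and at -28 in Oaz1, where -1 is the last base before the start. TATAA occurs in 26.2% of the 33469 rat windows of this length. TGACG or its complement begins at -177 and -49 in Odc1, at -63 in Amd1 and at -243 and -38 in Oaz1, and occurs in 21.2% of windows. CACGTG, found in 6.42% of windows, begins at -234 in Oaz1 and is not in the Odc1 and Amd1 windows. The windows of Oaz2, Sat1 and Srm, not shown, hold no TATAA, so the motif is not shared by the members. Among them TGACG or its complement is only in Sat1 (-41) and CACGTG only in Srm (-173). These matches describe letters only and were not tested as binding sites.

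Odc1, the gene of the first and most tightly controlled enzyme of the pathway, gave different values in its 2 probe sets. By probe set J04791_s_at the intensity (linear, scaled by the authors) was 3717, 4746 and 5513 in high corn oil arrays and 3304, 2785 and 3406 in low corn oil arrays. All 3 high values lay above all 3 low values, with high corn oil replicate 1 only a little above the low arrays. The means were 4658 ± 901 and 3165 ± 333 (SD, n = 3 each), a log2 difference of 0.52 ± 0.19 (SE), with a 95% interval of 0.08 to 0.97 and a limma unadjusted p of 0.0267. The adjusted p over all 5248 tested probe sets was 0.481, so the gene was not called.

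Probe set J04792_at for the same gene showed no such separation. It had intensities of 5402, 5207 and 5724 in high corn oil arrays and 5255, 4760 and 6444 in low corn oil arrays. The high values lay inside the range of the low ones. The log2 difference was -0.0007 ± 0.16 (SE), with a 95% interval of -0.37 to 0.37 and a limma adjusted p of 0.998. The log2 ratio of J04791_s_at to J04792_at within an array was -0.52, -0.13 and -0.05 in high corn oil arrays and -0.64, -0.74 and -0.89 in low corn oil arrays. The diet means of this ratio differed by 0.52, with groups that did not overlap and an exact permutation p of 0.1 (two-sided, n = 3 each), the smallest that 3 against 3 arrays allow; this ratio was looked at after the values were seen. The annotation of GRCr8 lists 10 Odc1 pseudogenes, and which of them the probes of either set match was not analysed here.

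**Figure D1:**
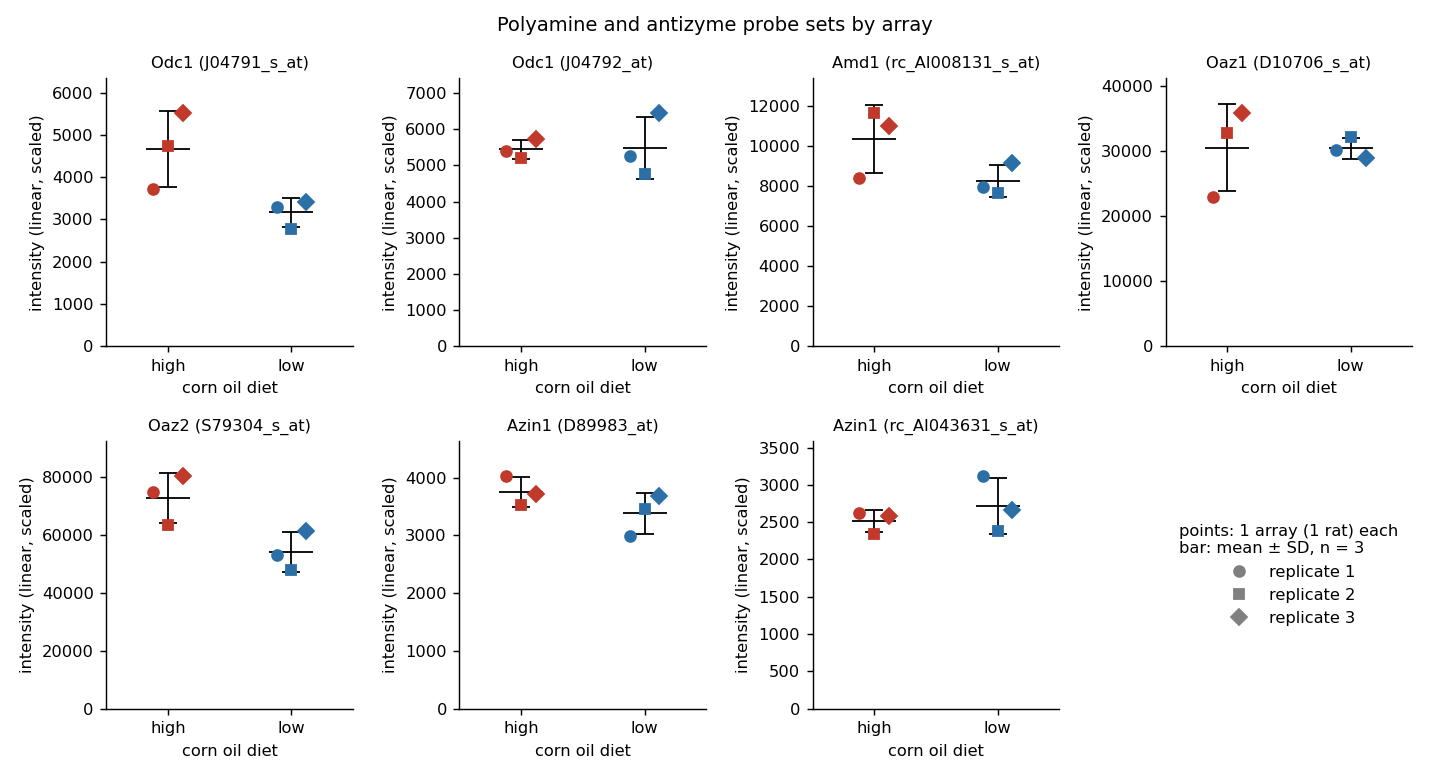
Intensity of the 7 probe sets (vertical axis, linear scale scaled by the authors) in high and low corn oil arrays; each point is 1 array, marked by replicate, and the bars give mean ± SD (n = 3). Odc1 probe set J04791_s_at and the probe set annotated to Oaz2 (assignment not checked) have high corn oil values all above the low ones. The other 5 probe sets overlap.

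Amd1, which encodes the decarboxylase that supplies aminopropyl groups for spermidine and spermine, was high on the same arrays as Odc1 J04791_s_at. Its intensities were 8427, 11645 and 10992 in high corn oil arrays and 7975, 7656 and 9140 in low corn oil arrays. High corn oil replicates 2 and 3 were above every low array, and high corn oil replicate 1 was inside the low range, so the groups overlapped. The means were 10355 ± 1701 and 8257 ± 781 (SD, n = 3 each), a log2 difference of 0.31 ± 0.17 (SE), with a 95% interval of -0.08 to 0.71 and a limma adjusted p of 0.524. GRCr8 lists 3 Amd1 pseudogenes.

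Each antizyme gene had 1 probe set, and the difference between their diet effects was not tested. Oaz1, the widely expressed antizyme whose translation needs a shift of reading frame promoted by polyamines, had 23033, 32866 and 35857 in high corn oil arrays and 30208, 32171 and 29014 in low corn oil arrays. High corn oil replicate 1 was the lowest of the 6 arrays and the other 2 high arrays were the highest. The means were 30585 ± 6709 and 30464 ± 1594 (SD, n = 3 each), and the log2 difference was -0.02 ± 0.19 (SE, 95% interval -0.45 to 0.42, limma adjusted p = 0.975). The sign turned to 0.17 when high corn oil replicate 1 was left out and to 0.02 when low corn oil replicate 2 was. It also turned to 0.04 after quantile normalization and to 0.08 with array weights. GRCr8 lists 2 Oaz1 pseudogenes.

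Oaz2, a second antizyme gene with the same frameshift mechanism, had intensities of 74689, 63377 and 80290 in high corn oil arrays and 53110, 47714 and 61355 in low corn oil arrays. All 3 high values lay above all 3 low values, although high replicate 2 and low replicate 3 were close. The means were 72785 ± 8616 and 54060 ± 6870 (SD, n = 3 each), a log2 difference of 0.43 ± 0.16 (SE), with a 95% interval of 0.06 to 0.80, a limma unadjusted p of 0.0276 and an adjusted p of 0.481. Its level in high corn oil replicate 1 was 138% of the low mean, between the 117% of replicate 2 and the 149% of replicate 3. Its probe set S79304_s_at ranked at place 20 of 8799 by mean intensity, at 63422 over the 6 arrays against 30525 for Oaz1. The annotation gives it a gene but no sequence accession, and the record behind its name was not looked up. Its assignment to Oaz2 was thus not checked, and every value given for Oaz2 rests on it.

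Azin1, the antizyme inhibitor gene, had 2 probe sets that pointed in opposite directions, each within its error. D89983_at had 4027, 3523 and 3712 in high corn oil arrays and 2986, 3462 and 3690 in low corn oil arrays, a log2 difference of 0.15 ± 0.15 (SE, 95% interval -0.21 to 0.51, limma adjusted p = 0.699). The other probe set, rc_AI043631_s_at, had 2623, 2345 and 2578 in high corn oil arrays and 3118, 2379 and 2659 in low corn oil arrays, a log2 difference of -0.10 ± 0.17 (SE, 95% interval -0.49 to 0.29, limma adjusted p = 0.810). The diets overlapped in both probe sets.

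Of the 7 probe sets, 0 passed limma's adjusted threshold of 0.05, where percent called over all tested probe sets was 0 as well. At an unadjusted p under 0.05 there were 2, both higher, against 9.95% of the 5248 tested probe sets (5.14% higher and 4.8% lower). That count of 2 depended on single arrays: it was 3 when high corn oil replicate 1 was left out, 1 for high replicate 2 or low replicate 1, 0 for high replicate 3 or low replicate 2, and 2 for low replicate 3. Groups did not overlap in 2 of the 7, both higher under the high corn oil diet, while 15.5% of all tested probe sets did not overlap, 8.82% higher and 6.71% lower. The 2 probe sets are too few to set their share against these. Both end in _s_at, as do 5 of the 7 members in all, and what else their probes match was not analysed. In mean log2, 4 of 7 were higher, with a median difference of 0.15, beside a median of 0.03 over all tested probe sets.

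The differences of Odc1 J04791_s_at and Amd1 were larger without high corn oil replicate 1. Odc1 J04791_s_at was then at 0.67 ± 0.17 (SE, limma adjusted p = 0.0815) and Amd1 at 0.45 ± 0.14 (adjusted p = 0.118). Oaz2 was at 0.41 ± 0.16 (adjusted p = 0.179). With that rat left out, 4.08% of tested probe sets were called, and spike-in signal was low in both remaining high arrays but in only 1 of the 3 low arrays. When high corn oil replicate 3 was moved to the low group, the differences were 0.20 for Odc1 J04791_s_at, 0.16 for Amd1 and 0.21 for Oaz2, each with a limma adjusted p of 0.998. Those of the other 4 were -0.20 for Oaz1, -0.05 for Odc1 J04792_at, 0.12 for Azin1 D89983_at and -0.10 for Azin1 rc_AI043631_s_at, with the same adjusted p.

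Within the arrays of high spike-in signal (1 high and 2 low corn oil) and within those of low signal (2 high and 1 low), Odc1 J04791_s_at differed by 0.28 and 0.57, Amd1 by 0.11 and 0.30, and Oaz2 by 0.57 and 0.22. Oaz1 differed by -0.43 and 0.24, Odc1 J04792_at by 0.11 and -0.23, Azin1 D89983_at by 0.31 and -0.03 and Azin1 rc_AI043631_s_at by -0.05 and -0.11. With 1 array in an arm of each set these are values with no spread, and their signs support nothing. A fit that took spike-in level as a block called no probe set by limma, and put Odc1 J04791_s_at at 0.42 (adjusted p = 0.593), Amd1 at 0.21 (0.682) and Oaz2 at 0.39 (0.593).

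**Figure D2:**
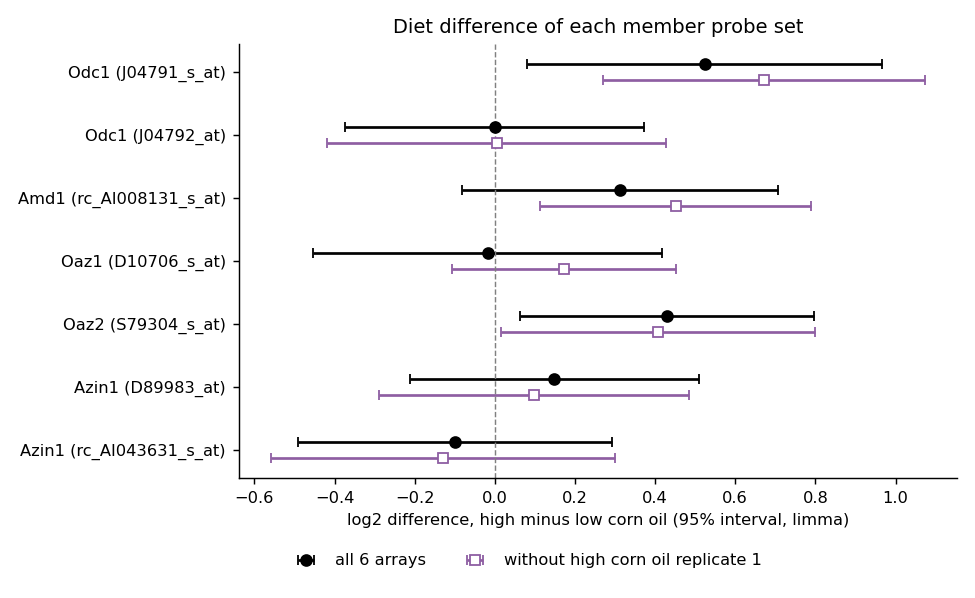
Log2 difference, high minus low corn oil, with its 95% interval from limma for the 7 probe sets; filled circles use all 6 arrays and open squares leave out high corn oil replicate 1. With all arrays the intervals of Odc1 J04791_s_at (0.08 to 0.97) and Oaz2 (0.06 to 0.80, assignment not checked) lie above 0 before adjustment. Those of the other 5 include 0.

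Ornithine decarboxylase activity depends on the enzyme, its antizyme and the antizyme inhibitor together. The log2 ratio of their RNA signals was compared within each array, which does not measure protein or enzyme activity. The ratio of the brighter Odc1 probe set J04792_at to Oaz1 averaged -2.43 ± 0.32 in high and -2.45 ± 0.29 in low corn oil arrays (SD, n = 3 each, exact permutation p = 1). Its ratio to Azin1 D89983_at averaged 0.52 ± 0.10 in high and 0.67 ± 0.20 in low corn oil arrays (exact permutation p = 0.3, two-sided, n = 3 each). By this probe set neither ratio differed beyond the spread between rats.

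With Odc1 J04791_s_at, used after the values were seen, the ratio to Oaz1 was -2.58, -2.75 and -2.67 in high corn oil arrays and -3.13, -3.46 and -3.03 in low corn oil arrays. The groups did not overlap, and high corn oil replicate 1 lay with the other high arrays. The difference was 0.54, with an exact permutation p of 0.1 (n = 3 each), the smallest possible, and 0.41 after high corn oil replicate 3 was moved to the low group (exact permutation p = 0.267, 2 against 4 arrays). The ratio of J04791_s_at to Azin1 differed by 0.37 with overlapping groups (exact permutation p = 0.3, n = 3 each), and by 0.08 after the same move (exact permutation p = 0.867). After it the ratios of J04792_at were at 0.15 to Oaz1 and -0.18 to Azin1. Adjusted over the 5 ratios compared, the p-values ran from 0.25 to 1. A ratio within an array shows unequal change and not which of the genes changed.

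**Figure D3:**
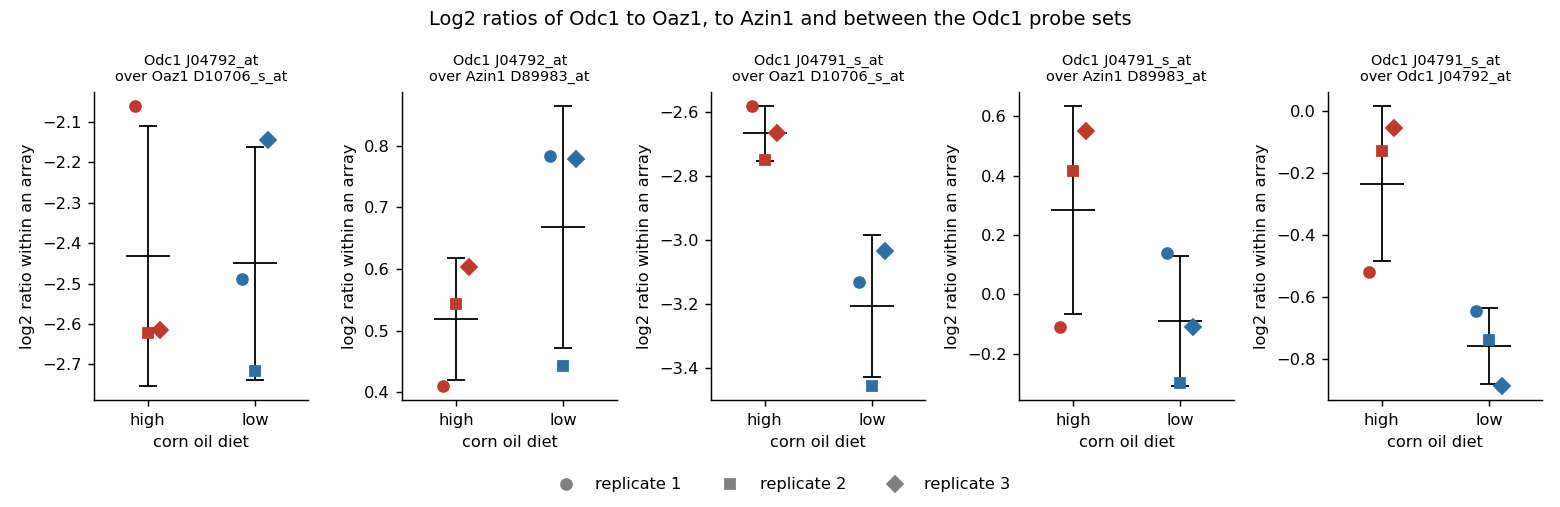
Log2 ratio within an array (vertical axis, a scale of its own in each panel) of each Odc1 probe set to Oaz1 and to Azin1, and of the Odc1 probe sets to each other, in high and low corn oil arrays; points are arrays marked by replicate and bars give mean ± SD (n = 3). The groups are apart in the ratio of J04791_s_at to Oaz1 (difference 0.54) and to J04792_at (0.52), and overlap in the other 3.

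Among genes that supply S-adenosylmethionine, the donor that Amd1 acts on, the smallest unadjusted p was that of Mat2a, which encodes the methionine adenosyltransferase of most tissues outside liver. Mat2a had intensities of 2686, 7085 and 7391 in high corn oil arrays and 3572, 2656 and 2803 in low corn oil arrays. High corn oil replicates 2 and 3 were at 235% and 246% of the low mean, and high corn oil replicate 1 was inside the low range at 89.2%. The log2 difference was 0.77 ± 0.38 (SE, limma adjusted p = 0.509). Without high corn oil replicate 1 it was 1.23, with a limma adjusted p of 0.0257, and called, as were 4.08% of tested probe sets. The same 2 arrays were highest for Odc1 J04791_s_at, at 150% and 174% of the low mean, and for Amd1, at 141% and 133%, and had the lowest summed secretory markers, at 67.5% and 69.5%. That sum followed Pbsn and Msmb, while Sbp and Klk1 were highest on these arrays. The part of secretory cell content, or of the lobes and neighbouring tissue taken, in these values was not tested. Oaz1 was also highest on these 2 arrays. Over tested probe sets the 2 arrays correlated at 0.932 with each other and at 0.857 to 0.897 with the other arrays (Spearman). How many of all tested probe sets were highest on these 2 arrays was not counted.

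**Figure D4:**
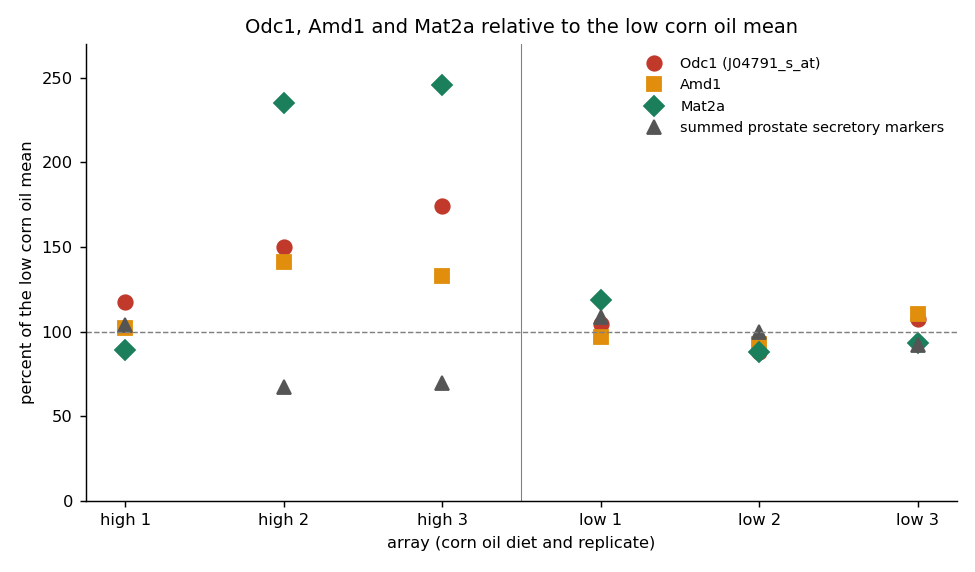
Level of Odc1 (J04791_s_at), Amd1, Mat2a and the sum of 12 prostate secretory markers in each array, as percent of the low corn oil mean (dashed line). High corn oil replicates 2 and 3 have the highest Odc1, Amd1 and Mat2a (Mat2a at 235% and 246%) and the lowest marker sums (67.5% and 69.5%), while high corn oil replicate 1 lies near the low arrays.

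Of 9 tested genes of the methionine cycle 7 were higher under the high corn oil diet and 2 lower, none past limma's adjusted threshold, with a median log2 difference of 0.19 beside 0.05 over all 3163 tested genes, of which 55.7% were higher. Next to Mat2a, Cbs, which takes homocysteine out of the cycle, was at 0.88 ± 0.91 (SE, limma adjusted p = 0.700), and was below 0 on 1 array of each diet. Adk, the adenosine kinase that removes a product of the cycle, was at 0.22 ± 0.24 (SE, limma adjusted p = 0.712). When high corn oil replicate 1 was left out Cbs was at 1.81 and Adk at 0.42, neither called (limma adjusted p = 0.161 and 0.248). The list's median was 0.42 when high corn oil replicate 1 was left out, 0.06 when replicate 3 was, and 0.002 with replicate 3 counted as low.

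The genes of ornithine and arginine supply included both arginases, which were lower in mean under the high corn oil diet. Arg2, the mitochondrial arginase that makes ornithine from arginine outside the liver, had 515, 612 and 220 in high corn oil arrays and 815, 739 and 786 in low corn oil arrays, with no overlap (log2 difference -0.69 ± 0.33 SE, limma adjusted p = 0.506). Arg1, the cytosolic arginase, had 984, -41.8 and 574 in high corn oil arrays and 1130, 1412 and 938 in low corn oil arrays (-1.36 ± 0.69 SE, adjusted p = 0.516), a difference that depends on the floor because 1 array was below 0. Otc, the urea cycle enzyme that uses ornithine, was dim and at 0.61 ± 0.28 (SE, limma adjusted p = 0.501), without overlap. Another Otc probe set, K03041mRNA_s_at, was at 0.84 ± 0.42 (SE, limma adjusted p = 0.515), and there the groups overlapped. Of 8 tested genes 5 were higher and 3 lower, 2 had groups that did not overlap, against 15.7% of all tested genes, none was called, and the median was 0.11 (0.01 when low corn oil replicate 1 was left out).

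Transport genes were mostly lower in mean, short of the test. Of 7 tested genes of amino acid and polyamine transport 5 were lower, none called, while 55.7% of all tested genes were higher. Their median was -0.20, and it was -0.03 without high corn oil replicate 3 and 0.10 with that array counted as low. Of 16 genes on this list 10 had a probe set, and most of those tested carry amino acids. Cav1, the caveolar coat protein linked to polyamine uptake in cultured cells, had 2822, 3721 and 2324 in high corn oil arrays and 4935, 4424 and 4597 in low corn oil arrays, with no overlap (-0.65 ± 0.20 SE, limma adjusted p = 0.463). Cav1 is also abundant in stroma. Of 7 fibroblast markers 6 were lower without overlap, against 6.71% of all tested probe sets. The summed level of these markers was 57466 to 78434 in high and 89997 to 125568 in low corn oil arrays. None of them was at 0 on every array, and their part in the Cav1 value was not tested. Slc7a5, a carrier of large neutral amino acids, was at -0.64 ± 0.34 (SE) and Slc3a1, the heavy chain of a carrier of cystine and basic amino acids, at -0.38 ± 0.43 (SE, limma adjusted p = 0.517 and 0.725), and Slc3a1 was at -0.78 when high corn oil replicate 1 was left out (adjusted p = 0.228).

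Of 6 tested genes for factors that act on Odc1 transcription or translation 4 were lower, none called, with a median of -0.15. The list mixes activators and repressors, so this count and median give no direction for Odc1. Mxd4, a repressor that competes with Myc for its partner Max, had 1778, 289 and 639 in high corn oil arrays and 1468, 1962 and 1597 in low corn oil arrays (-1.05 ± 0.50 SE, limma adjusted p = 0.505). High corn oil replicate 1 was inside the low range and the other 2 high arrays were far below it. Without high corn oil replicate 1 Mxd4 was at -1.61 with a limma adjusted p of 0.0472, and called. So were 4.08% of tested probe sets in that fit. Sp1, a factor that binds GC-rich promoters, was at -1.23 ± 0.67 (SE, limma adjusted p = 0.527) with 1 high array below 0, and at -1.97 when high corn oil replicate 1 was left out (adjusted p = 0.0671). Eif4ebp1, an inhibitor of cap-dependent translation, was at 0.19 ± 0.14 (SE, limma adjusted p = 0.605) by its brightest probe set. Its other probe sets were at 0.23 and -0.20 (limma adjusted p = 0.609 and 0.653). Mxi1 was at -0.19 by its brightest probe set and at -0.63, without overlap, by AF003008_at (limma adjusted p = 0.689 and 0.481). Myc was at 0.15 by its brightest and at -0.98 by Y00396mRNA_at (limma adjusted p = 0.884 and 0.537).

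Of the other polyamine enzymes fixed for naming, Oaz3, the antizyme of male germ cells, had the only probe set and was below 0 on all 6 arrays. No probe set named here stood for eIF5A, the protein that carries the spermidine-derived residue hypusine, or for its modifying enzymes.

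**Figure D5:**
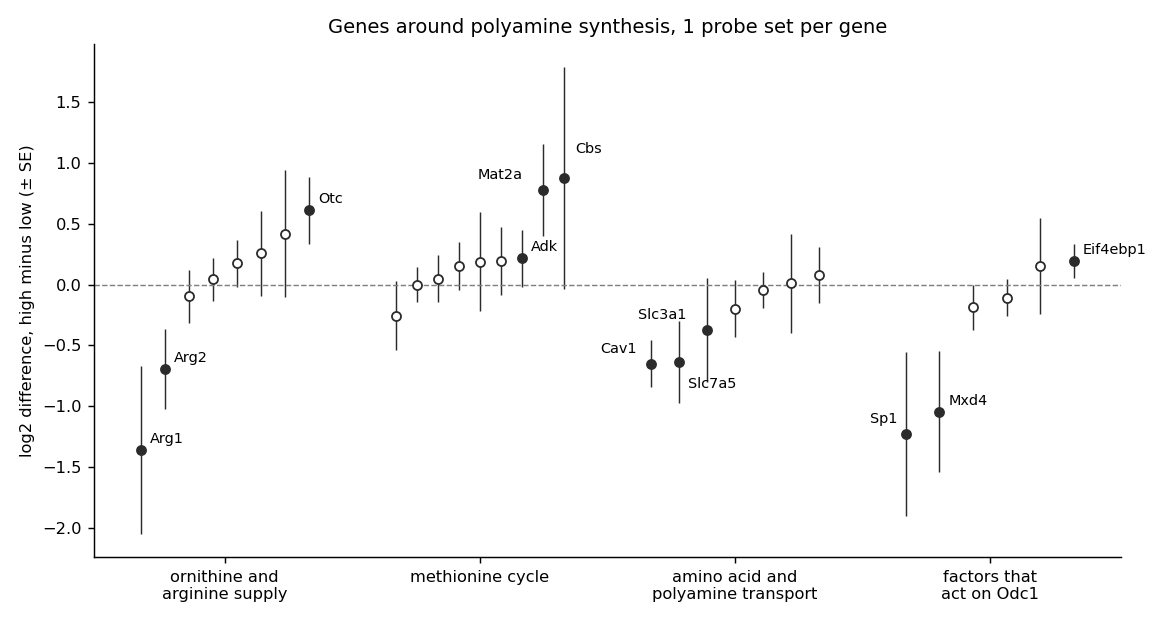
Log2 difference, high minus low corn oil, ± SE (limma) for tested genes of 4 lists around polyamine synthesis, with 1 probe set per gene; filled points are the 3 genes of each list with the smallest unadjusted p. Mat2a (0.77) and Otc (0.61) lie above 0 and Arg2 (-0.69), Cav1 (-0.65) and Mxd4 (-1.05) below, and none was called with all 6 arrays.

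The genes whose pattern over the 6 arrays was most like that of the brighter Odc1 probe set J04792_at, by Pearson correlation of log2 values, were Snap23 (r = 0.93), Mgat2 (0.91), Zp2 (0.90), Cga (0.90) and Eef1g (0.90). For J04791_s_at, outside the naming rule and looked at after the values were seen, the closest were Fntb (r = 0.99) and Cldn7 (0.99). Each is the highest of many genes over 6 arrays and is given as a description only. Sbp, a secreted prostate protein named for its ligand spermine, varied widely inside each diet, at 1891, 45313 and 53056 in high corn oil arrays and 39729, 6801 and 12179 in low corn oil arrays.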

How the data were processed

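Total RNA of dorsolateral prostate from 3 rats on a high and 3 on a low corn oil diet was hybridized to 1 short-oligonucleotide array per rat, from 6 ug of RNA per the labels. The deposited intensity values, 1 per probe set and array, were scaled by the authors: the mean after removal of the extreme probe sets was 2503 to 2504 on every array. The submitters' processing notes name MAS5, with no version or settings, and 18.6% to 23.1% of values per array were at or below 0, which no source used here explains. Detection calls were not used here.

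Symbols came from the platform annotation, updated by gene identifier to GRCr8: of 8799 probe sets 59 were controls, 7006 had 1 gene, 308 had several and 1426 none. Values below 0 were set to 0 and log2(value + 156.1) was taken, the pseudocount being the median of all values divided by 4; fold changes on this scale understate those of dim genes. Probe sets with a mean of at least 342 (the 40th percentile) were tested, 5248 without controls. The diet difference of each was fitted by limma (version 3.58.1, under R 4.3.3; lmFit, eBayes with trend, two-sided, all 6 arrays, no covariate, Benjamini-Hochberg over all tested probe sets, threshold 0.05). Within-array ratios had an exact permutation test. The limma step was checked on simulated arrays.

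Members and lists were chosen with earlier results of these data known. Named genes were all member probe sets, the measured other polyamine enzymes, the 3 smallest unadjusted p of each further list (1 probe set per gene, the brightest), the 5 genes most correlated with the brighter Odc1 probe set, and fixed tissue markers. Alternatives changed the pseudocount, filter, normalization, trend, weights, block, treatment of values below 0, the group of high corn oil replicate 3 and the probe set that stands for a gene, and left out each array. The labels do not say whether the replicate numbers pair the rats, and the main fit did not pair them. The precision is limited by the 3 arrays per diet.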

Additional observations from a re-analysis of the deposited data

How the results depend on the processing

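No member probe set passed limma's adjusted threshold under any of 17 alternatives, with adjusted p from 0.0629 to 0.998 for Odc1 J04791_s_at, 0.0741 to 0.998 for Oaz2 and 0.0959 to 0.998 for Amd1. These 3 kept their direction throughout. So did both Azin1 probe sets, which point in opposite directions and had limma adjusted p of at least 0.611. The alternatives reuse the same arrays, so a kept direction is no separate evidence. Leaving out each array in turn, Odc1 J04791_s_at ran from 0.40 to 0.67, Amd1 from 0.22 to 0.45, Oaz2 from 0.34 to 0.52, Azin1 from 0.07 to 0.21 (D89983_at) and -0.19 to -0.002 (rc_AI043631_s_at), Oaz1 from -0.14 to 0.17 and Odc1 J04792_at from -0.095 to 0.12. Differences near 0 turned sign: Oaz1 was at 0.044 with quantile normalization, 0.084 with array weights, 0.17 when high corn oil replicate 1 was left out and 0.02 when low corn oil replicate 2 was. Odc1 J04792_at was at 0.11 with array weights, 0.004 and 0.03 without high corn oil replicates 1 and 2 and 0.12 when low replicate 3 was left out. The mean of both Odc1 probe sets was at 0.26 (limma adjusted p = 0.551), against -0.0007 for the brighter, since the other set is included. The ratio of Odc1 J04792_at to Oaz1, 0.02 with all arrays, was -0.062 with quantile normalization and ran from -0.17 to 0.17 without single arrays, being below 0 when high corn oil replicate 1 (-0.17) or either of low corn oil replicates 1 (-0.002) and 2 (-0.12) was left out. Its ratio to Azin1 ran from -0.26 to -0.09, and those of J04791_s_at from 0.42 to 0.63 (Oaz1) and 0.24 to 0.57 (Azin1). The cause of these changes was not tested.

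Limma called 0 probe sets with all arrays (522 at an unadjusted p under 0.05), 9 with no filter and 0 to 214 without single arrays, the 214 without high corn oil replicate 1. The unadjusted count was 1536 with array weights, 349 with the filter at the 60th percentile, 75 when high corn oil replicate 3 joined the low group and 253 to 1363 without single arrays (253 when high replicate 3 was left out, 296 for low replicate 1, 274 for low replicate 2 and 1363 for high replicate 1). With no filter the list medians were 0.21 for ornithine and arginine supply and 0.023 for factors that act on Odc1, as dim genes enter. Without single arrays they ran from 0.01 to 0.11 and from -0.24 to -0.09, from 0.06 to 0.42 for the methionine cycle and from -0.41 to -0.03 for transport. With the replicate number as a block limma called 0 probe sets and left every member uncalled (Odc1 J04791_s_at 0.52, adjusted p = 0.445). The deviations of same-numbered rats from their diet means correlated at -0.05, -0.20 and 0.18, and those of other pairs at -0.16 to 0.27. With deviations taken within 3 arrays per diet, this cannot settle whether the numbers pair the rats. With spike-in level as a block the list medians came nearer to 0 for the methionine cycle (0.07), transport (-0.06) and ornithine and arginine supply (0.01), and that for factors was -0.18.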
